A study of Mus musculus with 4 samples.

Results

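The subject is the expanded T cell clones of the WT library from a single-cell study of hepatic CD4+ T cells in mice with diet-induced steatohepatitis. A T cell usually carries 1 rearranged receptor, an alpha chain (TRA) paired with a beta chain (TRB), and its daughters inherit it. Cells with the same pair of chains can thus be grouped as a clone. For each cell barcode and chain the assembled contig with the most unique molecular identifiers (UMIs, tags that mark single captured molecules) was kept, and a clonotype was defined by the V gene, the J gene and the nucleotide sequence of the third complementarity-determining region (CDR3) of both chains. Clonotypes were counted over WT cells with over 200 genes and under 5% mitochondrial UMIs. Those of more than 5 cells were taken as expanded: 35 of 1448 clonotypes, with 526 of the 2175 cells that had both chains (24.2%, exact 95% interval 22.4% to 26.0%). This interval treats cells as independent, which cells of the same clone are not, and is therefore too narrow.

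The study compared WT mice with Nr4a1fl/fl Nr4a2fl/fl Cd4Cre mice, called dKO, in which the floxed Nr4a1 and Nr4a2 alleles are deleted in cells that express Cre from the Cd4 promoter. Male mice of both genotypes were given a choline-deficient diet with 60 kcal% fat and 0.1% methionine for 8 weeks, and CD4 T cells were sorted from their livers. Each genotype gave 1 gene expression library and 1 receptor library, made from 2 mice whose cells the barcodes do not tell apart. No comparison here has replicates and no test was made: levels are UMIs of summed cells scaled to 1000000 in all (CPM), and their intervals cover counting error only.

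Of 10602 WT cells in the matrix 10556 passed the filters, with 23437516 UMIs and a median of 1679 per cell. A contig was found for 3841 of them, and 1280 had a TRB chain alone. In the library labelled dKO 17462 cells passed and 38 clones of more than 5 cells held 785 of 2420 cells with both chains (32.4%). Over all its cells the library labelled WT had Nr4a1 at 725 CPM and Nr4a2 at 183. The library labelled dKO had 1659 and 306, so that neither targeted gene was lower there. Whether the reads of these 5′ libraries lie within the deleted exons was not tested. The library labelled dKO is the larger of the pair, and the study also lists more dKO than WT cells. The matrices shared 245 barcodes, 13 of them of expanded WT cells, and no shared barcode had the same clonotype in both libraries.

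CD4+ T cells recognise peptides on MHC class II molecules, and clones that meet their antigen divide and take on effector programs. Th1 cells use the transcription factor T-bet (Tbx21) and secrete interferon-gamma (Ifng), and CD4+ T cells with cytotoxic features carry granule proteins such as Nkg7 and granzymes. Regulatory T cells (Tregs) depend on Foxp3, and naive cells that recirculate through lymph nodes express Ccr7 and Lef1.

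The clones held 70, 54, 37, 28, 21, 21, 20, 18, 18, 17, 16, 15, 14, 13, 12, 11, 10, 10 and 10 cells, then 5 clones of 8, 5 of 7 and 6 of 6 cells. The 4 largest held 35.9% of the expanded cells. Just outside the limit were 11 clonotypes of 5 cells, and 1275 clonotypes were found in a single cell. Clones are numbered by size.

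**Figure D1:**
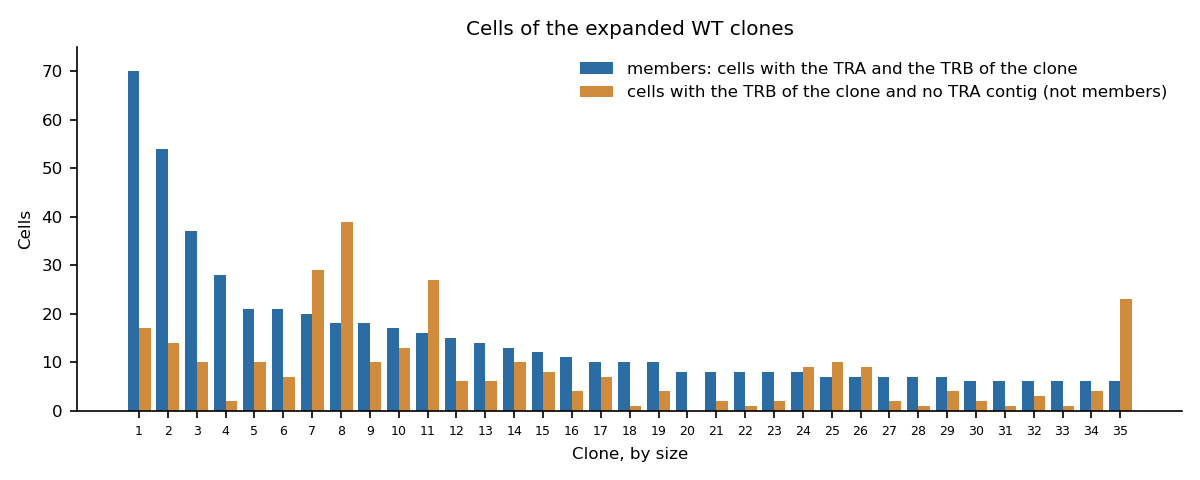
Cells per expanded WT clone (vertical axis, number of cells) by clone number (horizontal axis). Blue bars are members with both chains, from 70 down to 6 cells, and orange bars are cells that carried the TRB of the clone with no TRA contig, which were not members (288 cells over 34 of the 35 clones).

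The CDR3 sequences below were read from the deposited contigs, 5′ to 3′ on the coding strand, for the 2 largest clones and for the clones whose receptors resemble another clone. Capitals mark bases that match neither the germline V segment from its 5′ side nor the germline J segment from its 3′ side, that is the untemplated bases and, in TRB, what remains of the D segment.
Clone 1 TRA (TRAV7D-5, TRAJ39): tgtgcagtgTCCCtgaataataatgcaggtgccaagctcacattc
Clone 1 TRB (TRBV13-1, TRBJ2-2): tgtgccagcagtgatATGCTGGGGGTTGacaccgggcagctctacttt
Clone 2 TRA (TRAV4-4-DV10, TRAJ34): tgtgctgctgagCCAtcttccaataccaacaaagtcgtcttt
Clone 2 TRB (TRBV31, TRBJ2-3): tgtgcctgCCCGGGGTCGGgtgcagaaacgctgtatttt
Clone 3 TRA (TRAV14-2, TRAJ42): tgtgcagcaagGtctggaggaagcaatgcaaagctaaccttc
Clone 5 TRA (TRAV12-1, TRAJ35): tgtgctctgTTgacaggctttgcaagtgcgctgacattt
Clones 3 and 5 TRB (TRBV13-1, TRBJ2-5): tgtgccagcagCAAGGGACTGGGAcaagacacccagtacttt
Clones 6 and 22 TRA (TRAV4-4-DV10, TRAJ17): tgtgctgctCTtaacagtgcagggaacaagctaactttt
Clones 6 and 22 TRB (TRBJ2-4): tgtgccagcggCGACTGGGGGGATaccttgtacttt
Clone 7 TRA (TRAV7N-6, TRAJ32): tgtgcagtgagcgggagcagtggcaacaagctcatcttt
Clone 29 TRA (TRAV7N-6, TRAJ17): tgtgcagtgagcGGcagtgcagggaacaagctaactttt
dKO relative of clone 7, TRA (TRAV7N-6, TRAJ32): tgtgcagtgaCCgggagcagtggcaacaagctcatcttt
Clone 7 TRB (TRBV3, TRBJ1-5): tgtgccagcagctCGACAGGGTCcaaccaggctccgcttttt
Clone 29 TRB (TRBV3, TRBJ1-5): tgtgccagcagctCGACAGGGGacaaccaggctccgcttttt
dKO relative of clone 7, TRB (TRBV3, TRBJ1-5): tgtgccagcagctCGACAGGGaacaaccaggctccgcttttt
Clone 23 TRA (TRAV6-4, TRAJ22): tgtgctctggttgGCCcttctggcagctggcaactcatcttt
Clone 32 TRA (TRAV6-4, TRAJ9): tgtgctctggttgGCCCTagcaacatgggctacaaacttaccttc
Clone 23 TRB (TRBV5, TRBJ2-7): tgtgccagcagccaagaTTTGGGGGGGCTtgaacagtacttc
Clone 32 TRB (TRBV5, TRBJ2-7): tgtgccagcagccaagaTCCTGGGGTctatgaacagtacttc

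The germline segments lie in the T cell receptor loci of chromosome 14 (alpha) and chromosome 6 (beta) of GRCm38, the build the authors name as mm10, and both segments were found for 69 of the 70 clone chains. Those of clone 1 are Trav7d-5 at chr14:52835858-52836387, Traj39 at chr14:54179962-54180024, Trbv13-1 at chr6:41116007-41116468 and Trbj2-2 at chr6:41542957-41543007. Clone 7 used Trav7n-6 at chr14:53324632-53325208, Traj32 at chr14:54186101-54186166, Trbv3 at chr6:41048290-41048828 and Trbj1-5 at chr6:41535084-41535133. Each is annotated as a V or J gene segment of its receptor locus.

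Clones 3 and 5 had the same TRB CDR3, V and J and different TRA chains, as the printed sequences show. In 8 cells of clone 3 the TRA of clone 5 was present as an additional contig, and in 4 cells of clone 5 that of clone 3. These were all the cells of the pair with a second TRA contig. That is how 1 clone with 2 rearranged alpha chains would look, while the rule counts the pair as 2 clones. Clones 6 and 22 had identical CDR3 sequences in both chains and differed only in the V label of their TRB contigs, which was TRBV12-2+TRBV13-2 in clone 6 and TRBV13-2 in clone 22. Without V and J labels there were 34 distinct receptors and 33 distinct TRB CDR3 sequences. A further 5 clonotypes of up to 5 cells, with 8 cells in all, repeated both CDR3 sequences of clone 10, 11, 12, 15 or 35 under another V label.

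Clones 7 and 29 shared TRAV7N-6, TRBV3 and TRBJ1-5, and their TRB CDR3 sequences differed by 2 base edits and their TRA by 8. A clone of 12 cells in the library labelled dKO had the same V and J genes as clone 7 in both chains, at 1 base edit in TRA and 2 in TRB. Clones 23 and 32 shared TRAV6-4, TRBV5 and TRBJ2-7, at 14 and 6 edits. No expanded WT clonotype was itself present in the library labelled dKO.

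The clones used 26 TRAV, 20 TRAJ and 11 TRBV genes. TRBV3 was used by 6 of 35 clones (17.1%, exact interval 6.56% to 33.6%) and by 8.47% of single-cell clonotypes, and TRAV4-4-DV10 by 4 clones (11.4%, 3.203% to 26.7%) against 4.55%. Both intervals held the share of the single-cell clonotypes. The 4 clones with TRAV4-4-DV10 included clones 6 and 22, whose CDR3 sequences were identical. Of 595 pairs of clones 3 shared their TRAV and their TRBV gene (0.504%), clones 6 and 22 among them. Counted over the 34 distinct receptors 2 of 561 pairs did (0.357%), and of 812175 pairs of single-cell clonotypes 1559 did (0.192%). The letters GGACAGG of the Trbd1 segment, searched on the coding strand only, were in the TRB CDR3 of 7 clones (20%, 8.44% to 36.9%) and in 10.1% of single-cell clonotypes. Median CDR3 lengths were 39 and 42 bases for TRA and 42 bases for TRB in both. None of the 35 clones carried Trav11 with Traj18, the invariant alpha chain of NKT cells, which 51 single cells did, or Trav1 with Traj33, that of MAIT cells, which 3 single cells did.

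The expanded cells had 1486223 UMIs, a median of 2174 per cell, and the single-cell clonotypes 4120040, a median of 2586. Markers that define T cells were at close levels in both groups: Cd3e was at 979 CPM in expanded and 829 in single cells, and Cd4 at 246 and 232. Of the 9 T cell genes none differed 2-fold, and their median log2 ratio was 0.08. Cd8a and Trdc, which define CD8 and gamma delta T cells, had 0 UMIs in expanded cells, but the other chain gene of the CD8 list, Cd8b1, had 25, at 16.8 CPM. The summed level in expanded and single cells was 16.8 and 11.2 CPM for the 2 CD8 genes and 10.1 and 17.2 CPM for the 4 gamma delta genes. At least 2 UMIs of the plasmacytoid dendritic cell (pDC) and myeloid lists were found in 50 expanded cells (9.51%) and 124 single cells (9.73%). The summed level was 493 against 390 CPM for the 6 pDC genes and 410 against 349 for the 8 myeloid genes, of which S100a9 was at 0 in expanded cells.

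Across the transcriptome, 3638 genes reached 50 CPM in either group. Of these 74 (2.03%) were 2-fold or more higher in expanded than in single cells and 60 (1.65%) lower, 3.68% in all. The median log2 ratio over all genes was 0.12, and single genes are to be read against it. With TMM scaling, which lowers each log2 ratio by 0.10, the split was 52 higher and 69 lower. The counting interval of 1084 genes (29.8%) lay above 0 and that of 440 (12.1%) below.

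The calls of the gene lists depended on the cells compared. Over the lists of T cell states 17 members were 2-fold or more higher in the expanded cells. There were 10 with TMM scaling and 10 with each clone weighted equally, and 3 without the cells of both groups that had a UMI of Ccr7, Lef1 or Dapl1, of which 427 expanded and 530 single cells were left.

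Ifng (ENSMUSG00000055170, chr10:118441046-118445892) encodes interferon-gamma. It was at 344 CPM (interval 315 to 375) in expanded cells and 184 (171 to 198) in single cells, a log2 ratio of 0.90 (0.74 to 1.06). Nkg7 (ENSMUSG00000004612, chr7:43437073-43438249), a membrane protein of cytotoxic granules, was at 665 CPM (625 to 708) and 333 (315 to 351), a log2 ratio of 0.9998 (0.88 to 1.12) that lay just below 2-fold. Both intervals lay above the median of all genes. Without the cells with a UMI of Ccr7, Lef1 or Dapl1 the log2 ratios were 0.41 and 0.50, and without cells with at least 2 pDC or myeloid UMIs they were 0.96 and 1.06. Both transcripts were present in the same cell in 135 of 526 expanded cells (25.7%) and 186 of 1275 single cells (14.6%).

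With every cell thinned to 1000 UMIs, leaving out 17 expanded and 35 single cells below that depth, an Ifng UMI was found in 20.6% of expanded and 11.05% of single cells, and in 37.1% and 21.1% unthinned. For Nkg7 the thinned shares were 41.8% and 20.6%, and 60.5% and 36.9% unthinned. Free RNA in droplets gives a background: cells without a contig that held 5 or more pDC or myeloid UMIs (1818 cells, median 1654.5 UMIs) had an Ifng UMI in 2.93% and an Nkg7 UMI in 6.37% of thinned cells. Both groups were above it for both genes.

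Most Th1 genes had higher levels in the expanded cells. Of 9 listed genes 8 passed the filter, 4 of them were 2-fold or more higher in expanded cells and none lower, with a median log2 ratio of 0.97. The 4 were Tbx21, the transcription factor T-bet (172 against 72.1 CPM, log2 ratio 1.25), Cxcr6, a chemokine receptor of liver-resident lymphocytes (563 against 242 CPM, 1.22), and the interleukin-18 receptor chains Il18rap (98.9 against 45.6 CPM, 1.12) and Il18r1 (264 against 128 CPM, 1.04). Cxcr3, a chemokine receptor of Th1 cells, had a log2 ratio of 0.82, and Stat4, which transmits interleukin-12 signals, one of 0.19. All 8 had intervals above 0, as had 29.8% of all genes, and that of Stat4 (0.07 to 0.32) held the median of all genes. Without the cells with a Ccr7, Lef1 or Dapl1 UMI none of the 8 was 2-fold higher, with a median of 0.63. None of the 8 was 2-fold higher against clonotypes of 2 to 5 cells either, with a median of 0.33.

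Among 13 cytotoxic genes 7 passed, with 2 higher 2-fold and none lower and a median of 0.80. At 20 CPM or more 10 passed, with 2 higher and a median of 0.34. Gzma, which encodes granzyme A, had the highest ratio of all eligible genes: 128 against 10.4 CPM, a log2 ratio of 3.61 (3.13 to 4.13). It came from 38 expanded cells of 15 clones. Clone 12 held 82 of its UMIs, 52 of them in 1 cell, and the log2 ratio was 2.84 without that clone and 3.16 without that cell. Ctsw, the protease cathepsin W, was at 422 against 209 CPM (1.01), and Fasl, the Fas ligand, at 133 against 76.2 (0.80). Granzyme B (Gzmb) went the other way, at 43.7 against 69.2 CPM (-0.66). Without the cells with a Ccr7, Lef1 or Dapl1 UMI the median of the list was 0.27, with 1 gene 2-fold higher and 1 lower. The median against clonotypes of 2 to 5 cells was 0.21, with 1 of 8 genes 2-fold higher and 1 lower.

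Ccl5, a chemokine of effector T cells, was at 1962 against 926 CPM (1.08). Of the 4 chemokine genes past the filter it was the one 2-fold or more higher, and Xcl1 (94.9 against 190 CPM, -1.0) the one lower. Without the cells with a Ccr7, Lef1 or Dapl1 UMI 0 of the 4 were higher and 0 lower, with a median of 0.33. With TMM factors or with each clone weighted equally 0 were higher, and with TRB alone 0 were lower. The median of the 4 against clonotypes of 2 to 5 cells was 1.20, with 2 higher and 1 lower. Ccl4 was at 616 against 431 CPM (0.51), and Ccl3 at 88.8 against 51.9 (0.77), which was 0.07 without the cell that held 39% of its UMIs. Both were higher in the background cells defined above, at 8735 and 618 CPM, and without cells with at least 2 pDC or myeloid UMIs the ratio of Ccl4 was -1.92 and that of Ccl3 0.59. Carry-over of their RNA was not tested. Of 10 genes of tissue residency 7 passed and 2 were 2-fold higher: Itga1, the alpha chain of integrin CD49a (97.6 against 32.04 CPM, 1.61), and the transcription factor Bhlhe40 (1026 against 475 CPM, 1.11). Rgs1, a regulator of G protein signalling that is high in resident cells, was at 1823 against 982.5 CPM (0.89). All 7 residency genes had intervals above 0, as had 29.8% of all genes. Without the cells with a Ccr7, Lef1 or Dapl1 UMI 1 residency gene was 2-fold higher and the median was 0.27, against 0.51. None of the 7 residency genes was 2-fold higher against clonotypes of 2 to 5 cells, with a median of 0.22.

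Genes of dividing cells were higher in the expanded cells. All 10 cell cycle genes passed the filter, 8 were 2-fold or more higher and none lower, with a median of 1.09. Mki67, which marks cycling cells, was at 332 against 156 CPM (1.09), Cdk1, the mitotic kinase, at 96.2 against 29.4 (1.71), and Top2a, a topoisomerase of replicating DNA, at 275 against 132.5 (1.05). The centromere genes Cenpe (1.61) and Cenpf (1.48) were also among the 10 highest ratios. Without clone 1, which held the most UMIs of Mki67, the ratio was 0.85 for Mki67, 0.56 for Stmn1 and 0.83 for Pclaf, and of the 10 genes Ube2c (1.10) and Cdk1 (1.49) stayed past 2-fold. With each clone weighted equally 2 of the 10 were 2-fold higher, with TMM scaling 4, and without the cells with a Ccr7, Lef1 or Dapl1 UMI 1, with a median of 0.58. After thinning, a UMI of the cell cycle list was found in 26.9% of expanded cells (23.1% to 31.0%), 16.4% of single cells and 4.18% of background cells. The share was 28.8% in clonotypes of 2 cells and 35.3% in those of 3 to 5 cells. Against clonotypes of 2 to 5 cells 0 of the 10 genes were 2-fold higher, with a median of -0.35.

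The other genes of the 10 highest were Lgals3, galectin-3 (318 against 103 CPM, 1.62), Dock5 (1.59), Rbpj, the DNA-binding factor of Notch signalling (328 against 116 CPM, 1.5), Adam8 (1.49) and Ifitm3, an interferon-induced membrane protein (1.49). They were spread over clones: Rbpj was detected in 34, Lgals3 in 31, Dock5 in 31, Ifitm3 in 27 and Adam8 in 26 of the 35. Without the cells with a Ccr7, Lef1 or Dapl1 UMI the ratio was 0.61 for Lgals3, 0.70 for Adam8 and 0.80 for Ifitm3.

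Naive and recirculating genes were lower in the expanded cells. Of 12 listed 11 passed, 7 were 2-fold or more lower and none higher, with a median log2 ratio of -1.64. Against clonotypes of 2 to 5 cells 0 of the 8 that passed were 2-fold lower, with a median of 0.13. Without the cells with a Ccr7, Lef1 or Dapl1 UMI 0 of 6 were lower, with a median of -0.34, a filter that uses genes of this list. Ccr7, the lymph node homing receptor, was at 39.0 CPM in expanded and 313 in single cells (-3.00, -3.41 to -2.62). Igfbp4 (12.8 against 156 CPM, -3.61) had the lowest ratio of all eligible genes. The transcription factors Lef1 (96.2 against 388, -2.01) and Satb1 (128.5 against 425, -1.72) were likewise lower. Klf2 (511 against 894 CPM, -0.81) and Il7r (359 against 539, -0.59) were lower by less than 2-fold. After thinning, 1.57% of expanded and 20.5% of single cells had a Ccr7 UMI, and 3.74% of the cells with pDC or myeloid UMIs. Ccr7 RNA made by those cells and free RNA cannot be told apart here.

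Treg genes were also lower, but not uniformly. Of 12 listed 11 passed, 5 were 2-fold or more lower and none higher, with a median of -0.94. Without the cells with a Ccr7, Lef1 or Dapl1 UMI 9 were lower, with a median of -1.70, and without the cells with a Foxp3 UMI 3 of the 8 that passed, with a median of -0.33. The median against clonotypes of 2 to 5 cells was -0.94, with 4 of 10 genes 2-fold lower. Foxp3 had 12 UMIs in 9 expanded cells of 7 clones (8.07 against 66.7 CPM, -3.05). The thinned share of 0.589% was below the background share of 1.10%, and single cells were at 4.92%. Ikzf2, which encodes Helios, was at 55.2 against 254 CPM (-2.20), and Klrg1 at 14.1 against 51.0 (-1.85). Ctla4 (296 against 462 CPM, -0.64) and Tnfrsf4 (170 against 304, -0.84) were lower by less, and the actin-capping gene Capg was higher (367 against 255 CPM, 0.53).

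A further 3 genes were among the 10 lowest: Cd27, a costimulatory receptor (10.1 against 75.2 CPM, -2.90), Slpi (8.75 against 62.1 CPM, -2.83), and Il6st, the signalling chain of the interleukin-6 receptor (-2.49). Actn1, at -2.30, belonged to the naive list. The 256 UMIs of Slpi in single cells came from 22 cells, and the expanded cells had 13. Its ratio was 0.16 without the cells with a Ccr7, Lef1 or Dapl1 UMI and 1.06 against clonotypes of 2 to 5 cells.

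**Figure D2:**
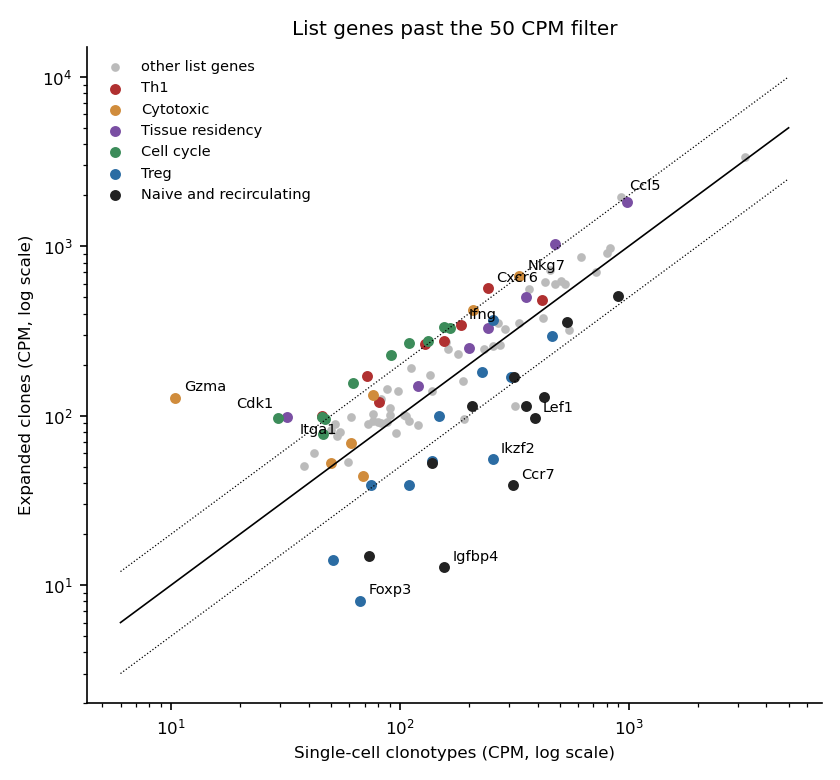
Level of each listed gene past the filter in expanded clones (vertical axis, CPM, log scale) against single-cell clonotypes (horizontal axis, CPM, log scale); the solid line marks equal levels and dotted lines a 2-fold difference. Th1, cytotoxic, tissue residency and cell cycle genes lie mostly above the line, and Treg and naive genes mostly below.

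No gene past the filter of the Th17 (5 genes), Th2 (2), follicular helper (3), interferon-stimulated (4), other cytokine (3) or T cell receptor-induced (11) lists differed 2-fold. Rora, a transcription factor of Th17 and resident cells, was at 728 against 452 CPM (0.69). Il17a was at 100.9 against 90.5 CPM (0.16), but 55 of its UMIs came from 1 cell of clone 2, without which the ratio was -0.49. Of the receptor-induced genes, Nr4a1 was at 864 against 621 CPM (0.48) and Nr4a2 at 249 against 162 (0.62), while Jun was at 320 against 546 (-0.77). The inhibitory receptor Pdcd1 was at 111 against 90.3 CPM (0.30, and -0.28 without the cells with a Ccr7, Lef1 or Dapl1 UMI), and Tox, a factor of exhausted and follicular T cells, at 114 against 317 (-1.47).

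The levels were also read by clonotype size. Ifng was at 184 CPM in single cells, 284 in clonotypes of 2 cells, 263 in those of 3 to 5, 366 in those of 6 to 20 and 313 in those of over 20 cells. Nkg7 was at 333, 652, 692, 662 and 670 CPM in the same order. Nkg7 therefore separated single cells from every class of repeated clonotype, and not the expanded clones from the smaller repeated ones. Mki67, at 156, 418, 392, 325 and 342 CPM, was likewise lowest in single cells. Clone 1 held 139 of the 213 Mki67 UMIs of the largest class, which was at 188 CPM (147 to 236) without it. Ccr7 was at 313, 24.0, 17.4, 54.4 and 17.7 CPM, and every repeated class was below the single cells. The clones of 6 to 20 cells (39.97 to 72.3) lay above the clonotypes of 3 to 5 (9.001 to 30.4), but without clone 24, which held 14 of their 47 UMIs, they were at 39.04 CPM (26.9 to 54.8) and the intervals overlapped. Against clonotypes of 2 to 5 cells the log2 ratio of the expanded cells was 0.95 for Ccr7.

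Other genes differed between the size classes. Gzma was at 10.4, 8.0 and 11.6 CPM in clonotypes of 1, 2 and 3 to 5 cells, close to the background level of 9.25, and at 164 and 77.1 in the larger clones. Of the 142 UMIs in the clones of 6 to 20 cells 82 came from clone 12, without which that class was at 73.0 CPM (55.7 to 94.0). Of the 48 in the clones of over 20 cells 35 came from clone 1, 22 of them in 1 cell, and without it that class was at 33.0 CPM (17.6 to 56.4). No Gzma UMI was found in 20 of the 35 clones. Foxp3 was at 66.7, 60.0 and 39.2 CPM in clonotypes of 1, 2 and 3 to 5 cells and at 5.79 and 11.3 in the larger clones, from 5 and 7 UMIs, with a background of 11.6. Ikzf2 was at 254 CPM in single cells, 254 in clonotypes of 2 cells and 103, 75.2 and 27.3 in the larger classes. Cxcr6 was at 242, 440, 396, 560 and 567 CPM.

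**Figure D3:**
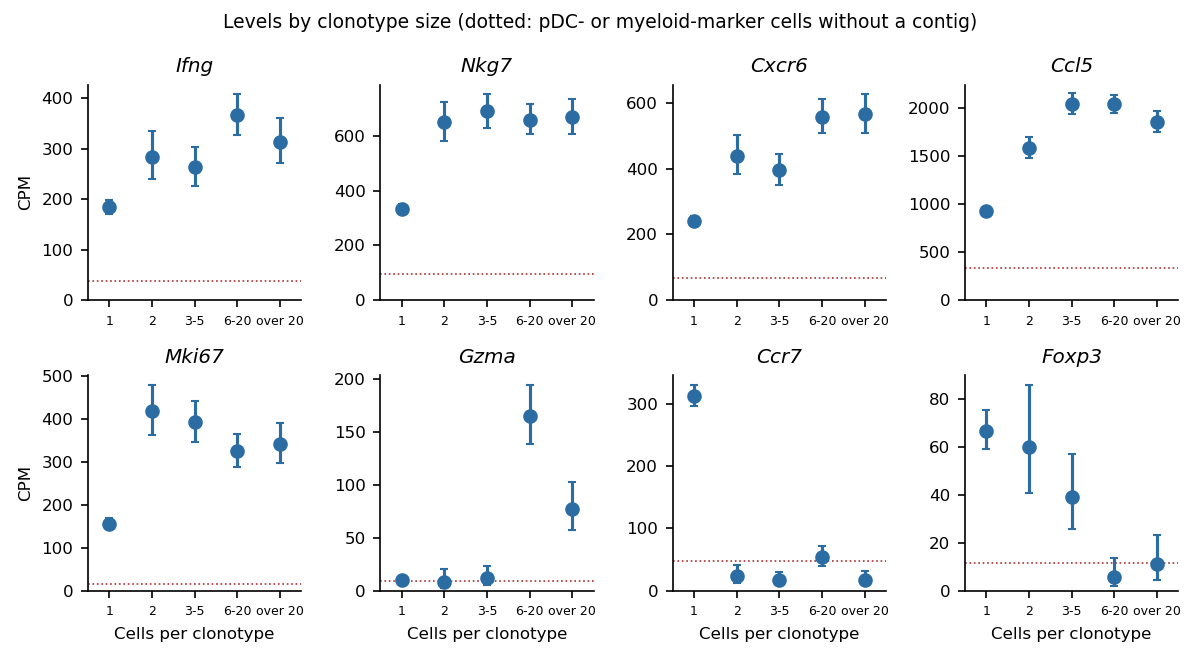
Level of 8 genes (vertical axes, CPM) by cells per clonotype (horizontal axes); points are summed cells, bars exact 95% Poisson intervals, and the dotted line the level in cells without a contig that held pDC or myeloid UMIs. Ifng, Nkg7, Cxcr6, Ccl5 and Mki67 are higher and Ccr7 lower in every class above 1 cell, while the summed level of Gzma is higher and that of Foxp3 lower in the classes of more than 5 cells.

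The cells with a TRB contig alone were not used by the rule. The TRB of an expanded clone was carried by 288 of them, and 688 had a TRB found in no other cell. Of the 74 genes higher in expanded cells 72 had the same direction in these cells and 40 were past 2-fold, and of the 60 lower genes 52 and 33, with 6 that had no ratio there. Of all 3638 genes 66.9% were above 0 and 33% below 0 in these cells, 3.46% were 2-fold or more higher and 1.26% lower. Ifng was at 336 against 131 CPM (log2 ratio 1.36, 1.08 to 1.64) and Nkg7 at 628 against 294 (1.10), Ccl5 had a ratio of 2.03, Ccr7 of -4.12 and Foxp3 of -2.58. The Treg list was near even in these cells, with a median of -0.17, Klrg1 at 0.01 and Ikzf2 at -0.72. Ifitm3, at 0.11, was close to even as well.

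The clones differed among themselves. Ifng was detected in 34 of 35 clones, from 0 to 1070 CPM with a median of 304.5, and 25 clones were above the level of the single cells. The interval of 11 clones lay wholly above that level and of 2 wholly below it. Nkg7 was detected in 34 clones, from 0 to 2443 CPM with a median of 538, and the interval of 15 lay above and of 2 below the single-cell level. Cxcr6 was the most even: it was found in all 35 clones, from 171 to 1211 CPM, and 32 were above the single-cell level. Ccl5 was the least even of the 4, from 0 to 7473 CPM, with the interval of 18 clones above and 6 below.

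**Figure D4:**
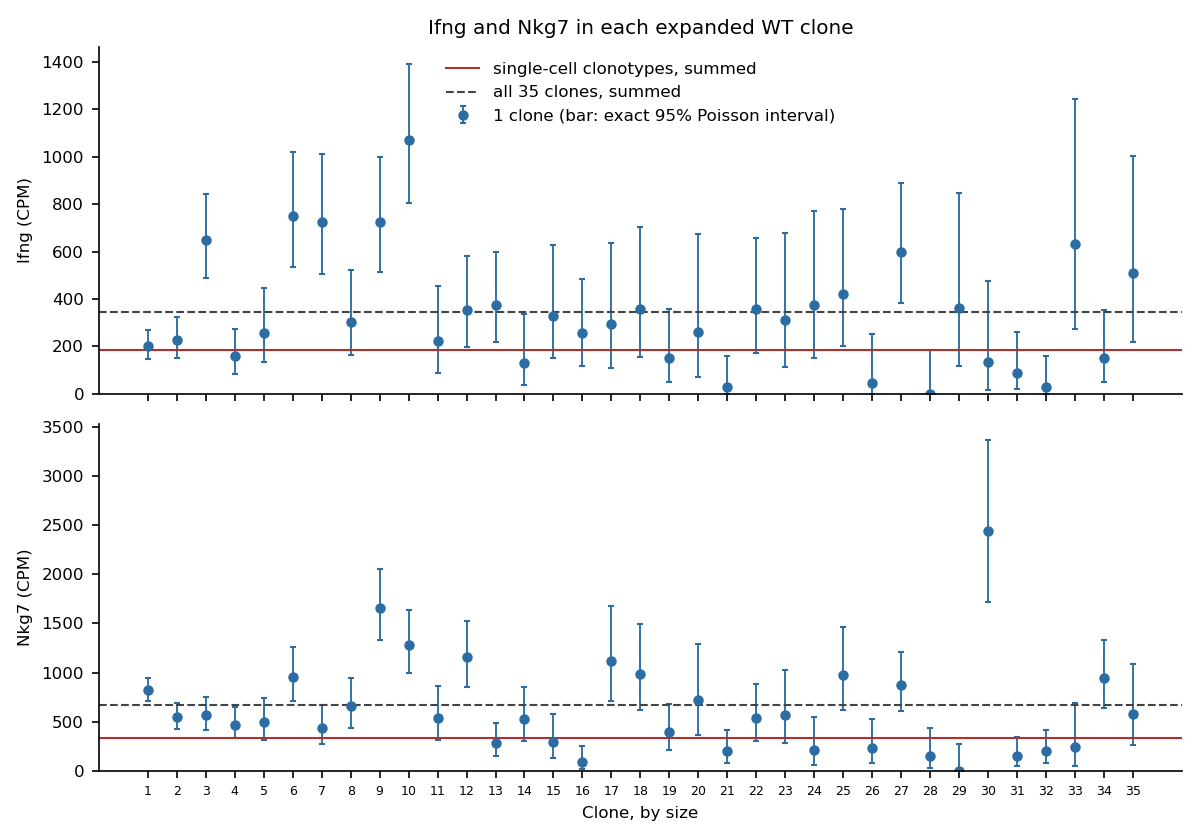
Ifng (top) and Nkg7 (bottom) in each expanded WT clone (vertical axes, CPM; horizontal axis, clone number by size); points are the clone's summed cells with exact 95% Poisson intervals, the red line the single-cell clonotypes and the dashed line all 35 clones. Clone 10 is highest for Ifng (1070 CPM) and clone 30 for Nkg7 (2443 CPM), and 10 clones are at or below the single-cell level of Ifng.

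Clone 1, of 70 cells, carried the most cycling cells by number. Mki67 was found in 29 of its cells (609 CPM), and 38 of 70 cells had 2 or more UMIs of the cell cycle list. Its leading genes against the other clones were Stmn1, which regulates microtubules (793 CPM, log2 ratio 1.69), Ass1, an enzyme of arginine synthesis (1.07), and Aprt, an enzyme of adenine salvage (1.06). Nkg7 was found in 56 and Ccl5 in 58 of its 70 cells, and Ifng in 25.

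Clone 2, of 54 cells, had the Fas ligand gene Fasl in 23 cells (282 CPM) and Mki67 in 3. The transcription factor gene Cebpb led it (461 CPM, 1.19), followed by Tspan13 (0.86) and Pdcd4 (0.84). The pDC marker Siglech had 46 UMIs in 4 of its cells. Clone 4 was led by Hilpda, a lipid droplet protein (593 CPM, 1.61), and Tnfsf8, the CD30 ligand (654 CPM, 1.38). Pdcd1 was found in 9 of its 28 cells, and Siglech in 2, with 21 UMIs. The pDC genes summed to 1519 CPM in clone 4 and 993 in clone 2.

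Clone 3 was led by Ctla2a (636 CPM, 1.27), the chemokine receptor gene Ccr2 (471 CPM, 0.99) and Odc1, which makes polyamines (0.92), and clone 5, with the same TRB, by Stat5b (1.40), Mbd2 (1.03) and Ifi27l2a (1.02). Ifng was at 647 CPM in clone 3 and 256 in clone 5, a log2 ratio of 1.34 (0.42 to 2.37). In clone 3 1 cell held 17 of the 55 Ifng UMIs. An Ifng UMI was found in 18 of 37 and 7 of 21 cells of these clones. Their Nkg7 levels, 565 and 491 CPM, differed by less than the counting error (0.20, -0.54 to 0.99), and so did Cxcr6, Ccl5, Mki67, Itga1 and Tbx21. Clones 6 and 22, which carry the same CDR3 sequences, differed for Ifng by 750 against 356 CPM (1.07, 0.05 to 2.24). The share of cells with an Ifng UMI ran the other way, 11 of 21 in clone 6 and 5 of 8 in clone 22, and 13 of the 40 UMIs of clone 6 came from 1 cell. The pDC genes summed to 131 CPM in clone 6 and 2138 in clone 22, where 1 cell held 22 Siglech UMIs, and their part in the Ifng difference was not tested. For this pair the intervals of the ratios held 0 for Nkg7, Cxcr6, Ccl5, Mki67, Itga1 and Tbx21. Clone 6 was led by Smndc1 (1.37), Psma3 (1.21) and Ifng (1.19).

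Clone 7 was led by the surface receptor gene Cd6 (706 CPM, 1.29), Coq10b (1.20) and Hopx (1.19), and had Ifng at 727 CPM in 9 and Nkg7 at 436 CPM in 11 of 20 cells. Clone 29, with the similar receptor, had Ifng in 2, Ccl5 in 4 and Nkg7 in 0 of 7 cells; 3 UMIs, the limit a count of 0 allows, correspond to 217.5 CPM at its depth, and the interval reaches 267.5. In the 12 related cells of the library labelled dKO Ifng was found in 2 cells (485 CPM), Nkg7 in 9 (1405 CPM) and Ccl5 in 11 (6930 CPM). In clones 23 and 32 Ccl5 was at 2178 and 431 CPM (2.34, 1.46 to 3.29), and was found in 5 of 8 and 3 of 6 cells. In each clone 1 cell held many of the Ccl5 UMIs, 19 of 42 in clone 23 and 11 of 15 in clone 32. Ifng was at 311 and 28.7 CPM there (3.44, 0.39 to 8.96), from 6 UMIs and 1, and Nkg7 at 570 and 201 CPM (1.504, 0.0059 to 3.11).

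Clone 8 was led by Eif3e (1.03), Dek (0.95) and Ankrd11 (0.93), none of them a gene of the effector lists. In clone 9 Nkg7 was found in 18 of 18 cells (1662 CPM), and Il12rb2, the chain of the interleukin-12 receptor that marks Th1 cells, was at 554 CPM with the second highest ratio (2.41). The genes of the highest and the next ratio, Ftl1 (2.63) and Ctsb (2.35), rested on 1 cell, which held 218 of the 246 UMIs of Ftl1 and 55 of the 78 of Ctsb. The myeloid genes summed to 5484 CPM in clone 9, against 410 over all expanded cells, and the pDC genes to 650. All 24 Siglech UMIs of the clone were in 1 cell, and the origin of this RNA was not tested. Mki67 had 0 UMIs in this clone.

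Clone 10, of 17 cells, was the one richest in Ifng and in receptors of natural killer cells. Ifng was found in 13 of its cells (1070 CPM, 806 to 1393), Klrd1, which encodes CD94, in 12 (545 CPM, log2 ratio over the other clones 3.40), and Klrk1, which encodes NKG2D, in 10 (292 CPM). Ly6c2 was at 642 CPM (2.32). Fasl was found in 12, Itga1 in 11 and Pdcd1 in 9 of the 17 cells, and Ccl5 was at 5662 CPM.

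Clone 12, of 15 cells, had the highest Ccl5 level, at 7473 CPM and in 15 of 15 cells, and a Gzma level of 1933 CPM from 5 cells. Clone 27, of 7 cells, had Gzma in 4 and Nkg7 in 7 cells. Nkg7 and Ccl5 did not always go together: clone 34 had Nkg7 in 6 of 6 cells and Ccl5 in 0, with a limit of 91.0 CPM at its depth and an interval up to 111.9. In clone 30, with Nkg7 in 6 of 6 cells, Ccl5 was at 4820 CPM.

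Some clones carried other effector genes. Il17a, the Th17 cytokine, was detected in 10 clones and in 2 or more cells of 4. It was found in 3 of 16 cells of clone 11 (45 UMIs, 29 of them in 1 cell) and in 3 of 6 cells of clone 32, where Ifng was found in 1. Clone 15 had Pdcd1 in 8 of 12 cells (806 CPM) and Gata3, the transcription factor of Th2 cells, in 6 (366 CPM). Clone 28 had no Ifng UMI in 7 cells, with a limit of 149.9 CPM and an interval up to 184.3, and Cxcr6 at 1049 CPM. Ccr7 was above the single-cell level in 1 clone, clone 24, where 11 of its 14 UMIs came from 1 cell, and the interval of 31 clones lay below that level. Clones outside the 10 largest are named here for values seen in the data.

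**Figure D5:**
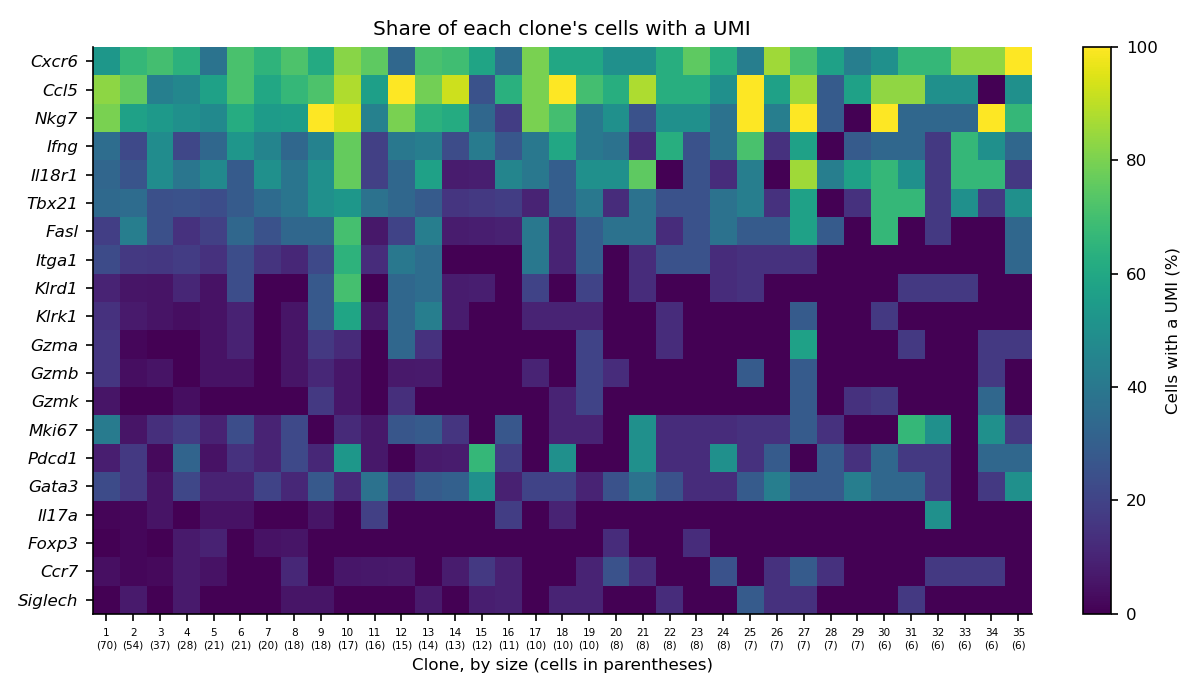
Share of each clone's cells with at least 1 UMI (colour, percent, not thinned) for 20 genes (vertical axis) in the 35 expanded WT clones (horizontal axis, clone number with its cells in parentheses). Cxcr6 is present in every clone, Klrd1 and Klrk1 peak in clone 10, and Foxp3 is present in 7 clones.

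In the library labelled dKO the expanded and single-cell clonotypes differed in another way for some of these genes. Foxp3 was at 266 CPM in expanded and 218 in single cells of that library (log2 ratio 0.29), Klrg1 at 579 and 149 (1.96, and 0.45 without the largest clone of that library), and Mki67 at 150 and 198 (-0.40). The Th1 genes had a median log2 ratio of -0.28 there and the naive genes one of -1.55. Of the 110 named genes 28 had ratios of opposite sign in the libraries with both intervals off 0, 27 of them among the 81 past the filter, where 6.49% of all genes had. Many genes were named for extreme ratios or high levels in these data, so their share cannot be read against that of all genes. With 1 library per genotype, a difference between genotypes and one between libraries cannot be told apart.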

How the data were processed

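Liver CD4 T cells of WT mice and of dKO mice were sorted and profiled with a Chromium Next GEM 5′ kit, 1 gene expression and 1 receptor library per genotype. The authors aligned the reads with Cell Ranger to mm10 (the matrix header names version 7.0.1) and deposited raw UMI counts per gene and cell together with tables of receptor contigs whose read and UMI counts are whole numbers. The deposited counts are not normalized, and the build of the contig reference is not given in the sources used here.

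Cells with over 200 genes and under 5% mitochondrial UMIs were kept, the barcodes of both libraries were joined, and no doublet caller was run; cells with more than 1 TRB contig were left out in an alternative. UMIs were summed over cells and divided by the summed total (CPM). Levels have exact Poisson, ratios exact conditional binomial and shares Clopper-Pearson 95% intervals. With 1 library per genotype no p-value was computed. Ratios were listed for genes at 50 CPM or more in either group, and called past 2-fold. Shares were taken after thinning cells to 1000 UMIs with seed 1, and a count of 0 was read as at most 3 UMIs, a one-sided limit that lies below the upper end of the two-sided Poisson interval. CDR3 sequences were compared with edlib 1.3.9.post1, and V, D and J segments were read from the GRCm38 genome with the GENCODE M21 annotation, of the same build as mm10.

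Genes named were Ifng, Nkg7, Nr4a1 and Nr4a2; of each of 24 lists (182 genes) the 4 with the highest level; the 10 highest and 10 lowest ratios with at least 10 UMIs in the group with fewer, without receptor, immunoglobulin, mitochondrial and ribosomal protein genes; and for the 10 largest clones the 3 genes highest over the other clones, with at least 20 UMIs. Other genes are named from their lists or for values seen. A gene that the rule named and a filter on cells are not reported here. Members and lists were chosen with earlier results of these data known.

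Alternatives were other clonotype definitions, clone sizes, cell filters, depths, weights, TMM factors (edgeR 4.0.16, R 4.3.3), comparison cells and minimum levels; merging V and J labels, leaving out cells with a Foxp3 UMI, leaving out cells with a UMI of Ccr7, Lef1 or Dapl1 and leaving out invariant chains were chosen after seeing the data. The code for the ratios was run on simulated counts for the comparison of expanded with single cells. All 200 changed genes of 1650 were recovered in direction, and intervals covered the true ratio for 97.0% of changed and 95.0% of unchanged genes. The simulated counts followed the Poisson model behind the intervals, so this checks the code only. Clumping of UMIs in cells or clones was not simulated. Python 3.11.15, numpy 2.4.6, pandas 2.3.3, scipy 1.17.1 and matplotlib 3.10.9 were used.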

Additional observations from a re-analysis of the deposited data

Results flagged for a closer look

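Of 110 named genes 28 had a log2 ratio of expanded over single cells in the library labelled WT that was opposite in sign to the one in the library labelled dKO, with both counting intervals on their own side of 0. Of the 81 named genes past the filter 27 did so, and of the 3637 distinct symbols past it 236 (6.49%). These shares are not like for like, because many genes were named for extreme ratios or high levels in these data. Each pair of values below is the log2 ratio in the library labelled WT and then in the one labelled dKO. Positive in WT were the centromere genes and genes of the cell cycle list: Cenpe 1.61 and -0.74, Cenpf 1.48 and -0.61, Mki67 1.09 and -0.40, Stmn1 0.99 and -0.22, Top2a 1.05 and -0.24 and Ube2c 1.28 and -0.82.

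Negative in WT were Cd27 -2.90 and 0.86, Ctla4 -0.64 and 0.61, Foxp3 -3.05 and 0.29, Ikzf2 -2.20 and 0.18, Klrg1 -1.85 and 1.96, Tnfrsf4 -0.84 and 0.70 and Tox -1.47 and 0.24. Also positive in WT were Cd40lg 0.61 and -1.88, Il2 0.79 and -2.99, Tnfsf8 0.77 and -1.22, Tnfsf11 0.51 and -1.44, Icos 0.29 and -0.18 and Cd69 0.51 and -0.35. Others positive in WT were Ccr4 0.61 and -1.59, Rora 0.69 and -0.94, Stat4 0.19 and -0.59, Nr4a1 0.48 and -0.12 and Junb 0.070 and -0.30. The remaining genes were Lgals3 1.62 and -0.51, Ifitm3 1.49 and -0.38, Tmem176b 0.50 and -1.44 and Lyz2 -0.23 and 0.61.

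The difference between the libraries was not tested, since each genotype has 1 library. In the library labelled dKO 281 of the 785 expanded cells belonged to 1 clone, and without it (504 cells) 27 of the 28 genes kept their sign there, the exception being Lyz2, at -0.47. Klrg1 was at 0.45 there without that clone. In WT 46% of the Lyz2 UMIs of the expanded cells came from 1 cell, without which its ratio was -1.11.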

How the results depend on the processing

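The number of expanded clones was 65 with TRB alone, 66 with the clonotype number of Cell Ranger, 94 for more than 2 cells and 16 for more than 10. The Ifng log2 ratio was 1.22 with TRB alone, 1.07 for clones of more than 10 cells, 1.16 with cells thinned to 2000 UMIs, 0.34 against clonotypes of 2 to 5 cells and 0.41 without cells with a UMI of Ccr7, Lef1 or Dapl1 (427 expanded and 530 single cells left). For Nkg7 it was 1.13 with TRB alone, 1.14 thinned to 2000 UMIs, -0.0216 against clonotypes of 2 to 5 cells and 0.50 without the cells with a naive UMI. List members 2-fold higher were 17 as reported, 10 with each clone weighted equally, 10 with TMM factors and 3 each against clonotypes of 2 to 5 cells and without the cells with a naive UMI; list members lower were 14 and, against clonotypes of 2 to 5 cells, 8. Genes past 2-fold were 134 as reported, 58 against clonotypes of 2 to 5 cells, 70 without the cells with a naive UMI, 278 at 20 CPM or more and 59 at 100 CPM or more.

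Thinned to 500 UMIs, to 2000 UMIs and unthinned, the share of cells with an Ifng UMI was 15.8%, 30.7% and 37.1% in expanded and 7.45%, 15.2% and 21.1% in single cells, and with an Nkg7 UMI 26.2%, 54.1% and 60.5% and 13.5%, 31.7% and 36.9%. Among genes past 2-fold, the sign against clonotypes of 2 to 5 cells was the other way for Actn1 (0.44), Ccr7 (0.95), Igfbp4 (1.93), Lef1 (0.070), Satb1 (0.61), Slpi (1.06), Cdk1 (-0.16), Cenpe (-0.50), Cenpf (-0.057), Mki67 (-0.28), Top2a (-0.22) and Ube2c (-0.54), and without the cells with a naive UMI for Slpi (0.16). The cause was not tested. Actn1, Ccr7, Igfbp4 and Slpi were under 50 CPM in the expanded cells and lower still in clonotypes of 2 to 5 cells. Igfbp4 had 19 UMIs and Slpi 13 in the expanded cells. Lef1 and Cenpf were near even. No counting intervals were computed for the ratios of this comparison. Of 2028 ratios of 103 named genes recomputed, 1695 stayed within the counting interval of the reported ratio, 320 moved beyond it and 13 turned among genes past 2-fold. Smaller ratios included, 65 ratios of 43 genes changed sign beyond that interval. Of these 12 did so without the cells with a naive UMI, among them Pdcd1 (-0.28), Stat4 (-0.0062), Il17a (-0.77), Tmem176b (-0.092) and Junb (-0.055), and Junb was at -0.029 with TMM factors. No paired analysis was possible because each genotype has 1 library. In the clones of 6 to 8 cells a count of 0 allows 74.7 to 236.7 CPM, by clone.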
